A study of Mus musculus with 21 samples.

Results

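The comparison described here set pituitaries of *Zeb1 200M* mice beside those of *Zeb1 200H* mice in a cohort of virgin females, and asked which miRNAs were graded with the number of *Zeb1* alleles that had lost their miR-200 sites. Its members were chosen by label, as the small-RNA-seq libraries of the virgin cohort that carried either mutant genotype, which gave 8 of the 21 libraries in the series. *Zeb1 200H* mice (labelled Zeb1_200H, n = 4) were heterozygous and *Zeb1 200M* mice (labelled Zeb1_200M, n = 4) were homozygous for a knock-in allele of *Zeb1* in which point mutations disrupt the sites predicted to pair with miR-200a and miR-200b in the 3′ UTR. All 8 mice were C57BL/6J females aged 8–12 weeks, killed when cycle staging first showed proestrus. The virgin cohort as a whole drew on lines from both embryonic stem cell clones, and the clone behind each of these 8 mice is not given in the sources used here. Wild-type (WT) mice of the same cohort (n = 3, replicates 1, 2 and 4) and an older breeding trial cohort of C57BL/6J females aged 28–36 weeks (*Zeb1 200H* n = 3, *Zeb1 200M* n = 3, WT n = 4) served only to place the values. Every library came from the pituitary of 1 mouse, and the counts cover mature miRNAs, not the *Zeb1* mRNA, so the genotype labels could not be checked against the targeted gene.

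The miR-200 superfamily comprises miR-200a, miR-200b, miR-200c, miR-141 and miR-429, which are processed from a pair of primary transcripts and are abundant in epithelia and in the anterior pituitary. ZEB1 is a transcriptional repressor that binds the promoters of both miR-200 loci, while the miRNAs in turn repress *Zeb1* through sites in its 3′ UTR, so that factor and miRNAs form a double-negative loop. Each hairpin yields a guide strand, which is loaded into Argonaute and recognises targets through its seed, and a passenger strand, which is mostly degraded.

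Sequencing depth was similar in the 2 genotypes. *Zeb1 200H* libraries 1 to 4 held 10266419, 9698685, 10082073 and 8551806 miRNA reads, and *Zeb1 200M* libraries 1 to 4 held 10515664, 9508346, 8502878 and 10260660. Levels are given as CPM, counts scaled to 1000000 miRNA reads of the library, in the order of the replicate numbers. The 3 most abundant miRNAs took 24.5–28.1% of the reads of these 8 libraries, and scaling factors by the trimmed mean of M values (TMM) lay between 0.964 and 1.04. Across miRNAs, log2 CPM of library pairs correlated at 0.995–0.998 within *Zeb1 200H*, 0.992–0.997 within *Zeb1 200M* and 0.994–0.997 between the genotypes, where miRNAs are not independent replicates. WT replicate 1 stood apart from the other WT libraries: it held 3816917 reads against 10806313 and 9029142 in replicates 2 and 4, its 3 most abundant miRNAs took 36.9% of reads against 26.9% and 27.3%, and its TMM factor was 0.616. The edgeR fit of all 3 genotypes was therefore run with and without it.

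Of 1909 miRNAs in the counting dictionary, 1365 had at least 1 read in the 8 libraries and 675 had enough reads to be tested. At a Benjamini-Hochberg adjusted p below 0.05 in edgeR's quasi-likelihood test, 15 of the 675 (2.22%) differed between the genotypes, of which 10 (1.48%) were lower and 5 (0.741%) higher in *Zeb1 200M*. The 15 were miR-200c-3p, miR-141-3p, miR-141-5p, miR-429-3p, miR-200b-3p, miR-200a-3p, miR-200c-5p, miR-183-5p, its 5′-end variant miR-183-5p.2 and miR-34a-5p, all lower, and miR-202-5p, miR-770-5p, miR-770-3p and the 5′-end variants miR-124-3p.1 and miR-124-3p.2, all higher. The CPM ranges of the genotypes did not overlap for any of the 15, as for 53 of the 675 tested (7.85%). Fold differences of the called miRNAs ran from 1.29 to 2.48, and 5 exceeded 2-fold. The 10 lower miRNAs together held 1.34% of reads in *Zeb1 200H* and 0.735% in *Zeb1 200M*, while the 5 higher ones held 0.436% and 0.663%.

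Across all 675 miRNAs the median log2 fold change was −0.01, with a median standard error (SE) of 0.119. At an unadjusted p below 0.05, 63 passed. The number called changed with the libraries in the fit. Adding WT libraries changed the miRNAs tested, the scaling factors and the estimate of spread together, and their parts were not tested. When the 3 WT libraries were added to the fit, 5 of 704 miRNAs (0.71%) were called between *Zeb1 200M* and *Zeb1 200H* (miR-141-3p, miR-141-5p, miR-202-5p, miR-429-3p and miR-183-5p.2), and with WT replicate 1 left out of that fit 17 of 729 (2.33%) were called. miR-200c-3p kept its log2 fold change of −1.24 in the fit with all 3 WT libraries, at an adjusted p of 0.121 by edgeR's quasi-likelihood test, the highest over the alternatives run, in which its lowest was 3.6e-44 by DESeq2. Without WT replicate 1 it was called in that fit (edgeR adjusted p 1.33e-07).

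Among the called miRNAs the largest differences in CPM were those of the miR-200c and miR-141 guide strands, which share a hairpin cluster on chromosome 6. miR-200c-3p was at 3951, 3395, 4148 and 3721 CPM in the *Zeb1 200H* libraries (3804 ± 323, SD, n = 4) and at 1639, 1723, 1604 and 1715 CPM in the *Zeb1 200M* libraries (1670.3 ± 58.1). Every homozygous library lay below every heterozygous one, by more than the whole range within either genotype. The log2 fold change of miR-200c-3p was −1.24 (SE 0.0783, 95% interval −1.42 to −1.07), a 2.37-fold lower level with an adjusted p of 1.14e-06 in edgeR's quasi-likelihood test. miR-141-3p, which carries the other seed of the superfamily, was at 4771, 4185, 5055 and 4478 CPM in *Zeb1 200H* (4622 ± 375) and at 2074, 1998, 1992 and 2167 CPM in *Zeb1 200M* (2058 ± 81.8). Its groups were as widely separated, with a log2 fold change of −1.22 (SE 0.0785, 95% interval −1.40 to −1.05, edgeR adjusted p 1.14e-06). Within *Zeb1 200H*, replicate 3 was the highest and replicate 2 the lowest library for both miRNAs. These are bulk libraries, in which fewer cells of a type and less miRNA per cell cannot be told apart.

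The 3 guide strands from the miR-200b, miR-200a and miR-429 cluster on chromosome 4 were also lower in *Zeb1 200M*, by smaller factors. miR-429-3p was at 587, 551, 824 and 563 CPM in *Zeb1 200H* and at 377, 356, 363 and 389 CPM in *Zeb1 200M* (371 ± 14.6). The groups did not overlap, although *Zeb1 200H* replicate 3 lay far above its 3 companions, and the log2 fold change was −0.82 (SE 0.126, 95% interval −1.10 to −0.55, edgeR adjusted p 0.00408). miR-200b-3p was at 2008, 1774, 2116 and 1801 CPM in *Zeb1 200H* (1925 ± 165) and at 1487, 1332, 1345 and 1469 CPM in *Zeb1 200M* (1408 ± 81.2). Its lowest heterozygous library was above its highest homozygous library, with a log2 fold change of −0.51 (SE 0.0851, 95% interval −0.69 to −0.32, edgeR adjusted p 0.00704), or 1.42-fold. miR-200a-3p was at 1943, 1687, 1998 and 1692 CPM in *Zeb1 200H* and at 1403, 1278, 1350.5 and 1446 CPM in *Zeb1 200M* (1369 ± 72.4). Here too the groups were apart, and the log2 fold change was −0.47 (SE 0.0857, 95% interval −0.66 to −0.29, edgeR adjusted p 0.00864), or 1.39-fold.

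**Figure D1:**
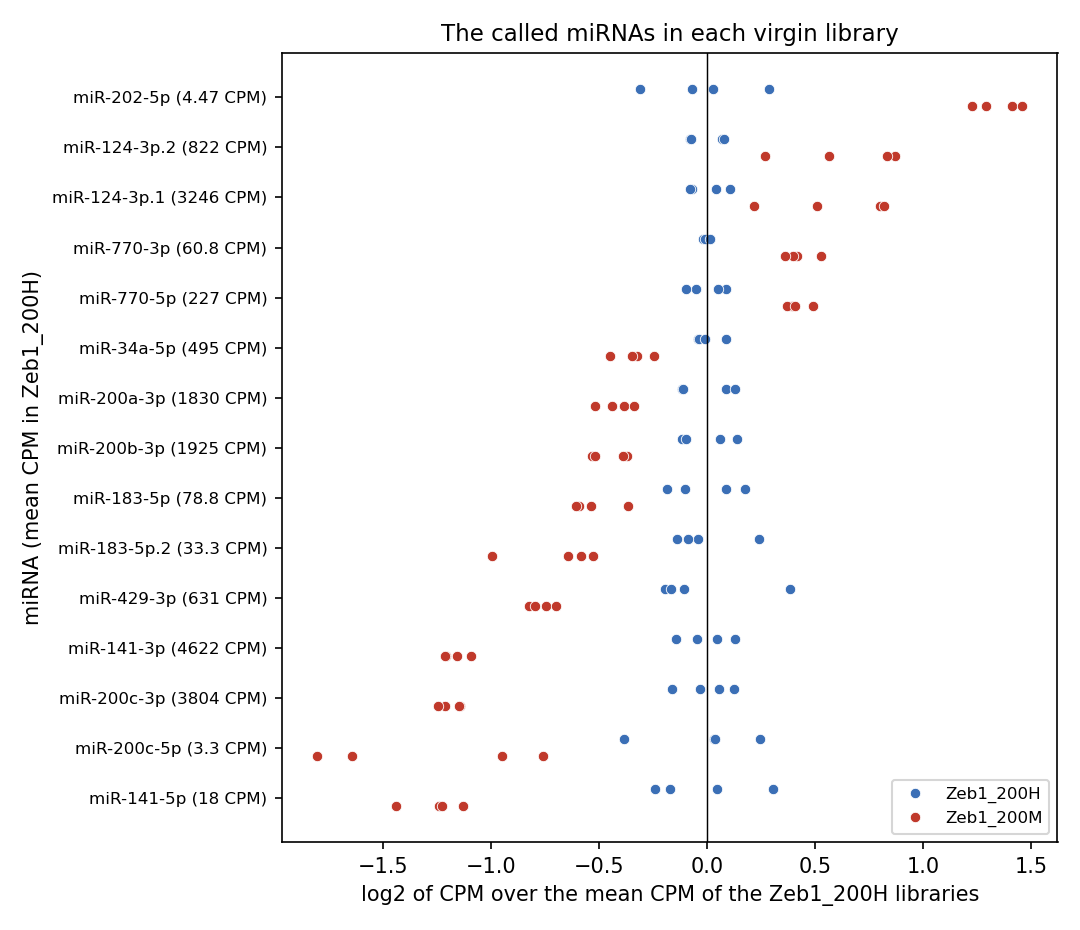
Level of each of the 15 called miRNAs in every *Zeb1 200H* (blue) and *Zeb1 200M* (red) library of the virgin cohort, as log2 of the CPM over the mean CPM of the *Zeb1 200H* libraries, which stands beside each name, with 1 point for a library. For each miRNA the 4 *Zeb1 200M* points lie wholly to the left or wholly to the right of the 4 *Zeb1 200H* points.

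Summed by seed family, miR-200b-3p, miR-200c-3p and miR-429-3p (3 of 3 called lower, where 1.48% of all miRNAs tested were) held 6546, 5720, 7088 and 6084 CPM in *Zeb1 200H* and 3503, 3411, 3312 and 3573 CPM in *Zeb1 200M*. The family of miR-200a-3p and miR-141-3p (2 of 2 called lower, against the same 1.48%) held 6714, 5872, 7054 and 6169 CPM and 3478, 3276, 3343 and 3613 CPM. The 2 families thus held similar amounts in each mutant genotype and had separate ranges between the genotypes, and each combines a member from chromosome 6 with 1 or 2 members from chromosome 4. Together the 5 guide strands made up 1.33%, 1.16%, 1.41% and 1.23% of reads in *Zeb1 200H* and 0.698%, 0.669%, 0.665% and 0.719% in *Zeb1 200M*. For reference, the family of miR-200b held 36936, 28098 and 28272 CPM and the family of miR-200a held 31858, 27685 and 27078 CPM in WT replicates 1, 2 and 4.

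The sum of the miR-200c and miR-141 guides divided by the sum of the miR-200b, miR-200a and miR-429 guides was 1.92, 1.89, 1.86 and 2.02 in *Zeb1 200H* and 1.14, 1.25, 1.18 and 1.18 in *Zeb1 200M*. This ratio is taken within a library and does not depend on scaling, and its ranges were far apart. The chromosome 6 sum went from 8426 ± 697 to 3728 ± 117 CPM (SD, n = 4), while the chromosome 4 sum went from 4386 ± 439 to 3149 ± 163 CPM. WT libraries gave ratios of 3.17 in replicate 1 but 1.46 and 1.46 in replicates 2 and 4, so that against the latter 2 the ratio was higher in the heterozygote and lower in the homozygote. In the breeding trial cohort it was 2.14, 1.68 and 1.94 in *Zeb1 200H*, 1.11, 1.05 and 0.954 in *Zeb1 200M*, and 1.57, 1.36, 1.51 and 1.55 in WT, the same order of genotypes in mice of another age and breeding history. The ratio was not tested.

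**Figure D2:**
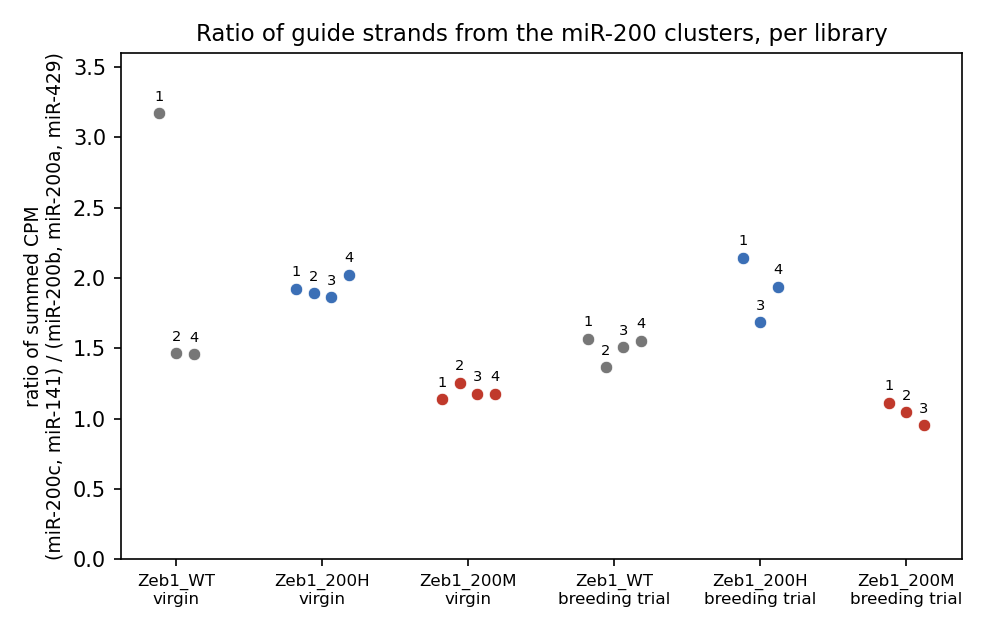
Ratio of the summed CPM of miR-200c-3p and miR-141-3p to the summed CPM of miR-200b-3p, miR-200a-3p and miR-429-3p in each library, by genotype and cohort, with 1 point for a library and its replicate number above it. In both cohorts the *Zeb1 200H* libraries lie above the *Zeb1 200M* libraries, and WT replicate 1 of the virgin cohort, at 3.17, lies above all other libraries.

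Within the chromosome 4 cluster the members kept more even proportions. miR-200a-3p stood at 0.939–0.967 of miR-200b-3p in the *Zeb1 200H* libraries and at 0.944–1.00 in the *Zeb1 200M* libraries, overlapping ranges. miR-429-3p stood at 0.292, 0.311, 0.390 and 0.312 of miR-200b-3p in *Zeb1 200H* and at 0.253–0.270 in *Zeb1 200M*, ranges that were apart. These proportions were not tested.

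Passenger strands of the same hairpins were scarce, and 4 of the 5 could be tested. All 4 had values below 0 on the log2 scale (median −0.88, against −0.01 over all miRNAs tested), and 2 were called lower, where 1.48% of all miRNAs tested were called lower. miR-141-5p, the most abundant of them, was at 16.0, 18.6, 22.2 and 15.2 CPM in *Zeb1 200H* and at 7.61, 6.63, 8.23 and 7.70 CPM in *Zeb1 200M*, wholly separate ranges. Its log2 fold change of −1.31 (SE 0.155, 95% interval −1.65 to −0.97, edgeR adjusted p 0.000558) was close to the −1.22 of the guide from the same hairpin. miR-200c-5p was at 2.53, 3.92, 3.37 and 3.39 CPM against 1.71, 0.947, 1.06 and 1.95 CPM. It had the lowest level of the called miRNAs, and its log2 fold change was −1.24 (SE 0.279, 95% interval −1.85 to −0.64, edgeR adjusted p 0.0366). That call was lost when any 1 library other than *Zeb1 200M* replicate 4 was left out, with edgeR adjusted p values of 0.0516, 0.129, 0.105 and 0.103 without *Zeb1 200H* replicates 1 to 4 and 0.0648, 0.143 and 0.136 without *Zeb1 200M* replicates 1 to 3.

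miR-200b-5p did not pass the test, although its values of 17.9, 17.4, 18.9 and 15.7 CPM in *Zeb1 200H* and 12.4, 11.04, 13.9 and 13.8 CPM in *Zeb1 200M* did not overlap (log2 −0.51, 95% interval −0.79 to −0.23, edgeR quasi-likelihood adjusted p 0.0811). Its adjusted p was 0.024 by DESeq2 and reached 0.996 in the fit with all 3 WT libraries, the lowest and the highest over the alternatives run, the latter by edgeR. In that fit without WT replicate 1 it was called (edgeR adjusted p 0.0329). miR-200a-5p overlapped between the genotypes, at 8.77, 8.35, 10.5 and 7.72 CPM against 7.42, 7.68, 7.17 and 9.45 CPM (log2 −0.21, 95% interval −0.56 to 0.14). miR-429-5p stayed below 1 CPM in all 8 libraries and had too few reads to be tested in the fit of these 8. Summed, the passenger strands held 45.5, 48.5, 55.5 and 42.4 CPM in *Zeb1 200H* and 29.5, 26.9, 30.5 and 33.4 CPM in *Zeb1 200M*.

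The mature sequences of the 5 guides are shown because they set apart what the members share by seed from what they share by locus. Sequences are from RefSeq for build GRCm38.p6, in which 33 of the 40 miRNAs named here had an entry, with seed bases 2 to 8 in capitals. The first 3 share a seed:
miR-200b-3p: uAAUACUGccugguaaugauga
miR-200c-3p: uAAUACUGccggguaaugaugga
miR-429-3p: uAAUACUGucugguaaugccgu
The other pair shares the alternative seed:
miR-200a-3p: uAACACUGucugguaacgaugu
miR-141-3p: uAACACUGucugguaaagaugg

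Reads of this cohort were assigned by their first 19 bases. Over these bases miR-200b-3p and miR-200c-3p differ at 1 position, as do miR-200a-3p and miR-141-3p, which share their first 16 bases. miR-429-3p differs from miR-200b-3p at 2 positions and from miR-200c-3p at 3. A read with an error at the distinguishing base could be assigned to the partner, so levels of these pairs are not wholly independent. Their log2 fold changes were −0.51 and −1.24 in the first pair and −0.47 and −1.22 in the other. In the GRCm38 annotation the hairpins lie in a pair of clusters. Mir200c (chr6:124718322-124718390) lies in an intron of Gm15884, and Mir141 (chr6:124717914-124717985) lies in an intron of the same gene and in an exon of Gm29008. Mir200b (chr4:156055681-156055750) and Mir200a (chr4:156054896-156054985) lie in introns of Ttll10 and Gm13648, and Mir429 (chr4:156053905-156053987) lies in an intron of Ttll10 and an exon of Gm13648.

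Among other miRNAs typical of epithelia, 13 of 17 entries were tested and 2 were called, both lower, where 1.48% of all miRNAs tested were called lower. Both are 5′-end variants of miR-183-5p, a miRNA best known from sensory organs, and so count as 1 miRNA. The median log2 fold change of the list was −0.13. miR-183-5p was at 83.8, 88.9, 73.3 and 69.3 CPM in *Zeb1 200H* and at 52.3, 61.2, 51.7 and 54.4 CPM in *Zeb1 200M*, without overlap (log2 −0.58, SE 0.0943, 95% interval −0.78 to −0.37, edgeR adjusted p 0.00649). The less abundant miR-183-5p.2 was at 32.3, 39.4, 31.3 and 30.3 CPM against 22.3, 23.1, 16.7 and 21.3 CPM (log2 −0.73, SE 0.125, edgeR adjusted p 0.00764). Its ranges were likewise apart. Both variants summed gave −0.61 (SE 0.0927, edgeR adjusted p 0.00366), a sum chosen after seeing the data.

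miR-182-5p and miR-96-5p are encoded next to miR-183 but did not pass the test. miR-182-5p was at 327, 303, 251 and 250.2 CPM in *Zeb1 200H* and at 223, 226, 214 and 247 CPM in *Zeb1 200M*, ranges that were narrowly apart (log2 −0.37, 95% interval −0.58 to −0.16, edgeR quasi-likelihood adjusted p 0.0905). It passed by DESeq2 (adjusted p 0.0294) and by edgeR without a filter on low counts (adjusted p 0.0374), and over all alternatives its adjusted p ran from 0.0294 to 0.515. miR-96-5p, the most abundant member of the list, was at 486, 449.4, 398 and 373 CPM against 362, 341, 321 and 418 CPM, which overlapped because *Zeb1 200M* replicate 4 exceeded 2 heterozygous libraries (log2 −0.30, 95% interval −0.53 to −0.07). Mir183 (chr6:30169668-30169737), Mir96 (chr6:30169446-30169551) and Mir182 (chr6:30165918-30165992) lie on the minus strand within a few kilobases and overlap no annotated gene in GRCm38. The mature sequences are shown because neighbouring hairpins carry seeds that differ.
miR-183-5p: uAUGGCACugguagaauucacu
miR-96-5p: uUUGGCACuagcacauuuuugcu
miR-182-5p: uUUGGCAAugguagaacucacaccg

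miR-205-5p, a marker of stratified epithelia, was at 359, 342, 396 and 359.8 CPM in *Zeb1 200H* (364 ± 22.5) and at 350.0, 316, 324 and 336 CPM in *Zeb1 200M* (331 ± 14.9). The ranges overlapped, and miR-205-5p was not called (log2 −0.19, 95% interval −0.35 to −0.03, edgeR adjusted p 0.489). miR-31-5p was at 101 ± 1.75 against 96.9 ± 7.96 CPM (log2 −0.12, 95% interval −0.29 to 0.05). Summed over the list, *Zeb1 200H* libraries held 2091, 2004, 1969 and 1902 CPM and *Zeb1 200M* libraries 1851, 1776, 1703 and 1936 CPM, which overlap, against 4188, 5805 and 6332 CPM in WT replicates 1, 2 and 4. The part of other epithelial cells in the miR-200 difference was not tested.

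The called miRNA with the largest relative increase was miR-202-5p, a miRNA best known from the gonads. It was at 5.45, 3.61, 4.26 and 4.56 CPM in *Zeb1 200H* (4.47 ± 0.766) and at 10.9, 11.9, 10.5 and 12.3 CPM in *Zeb1 200M* (11.4 ± 0.835), while WT replicates 1, 2 and 4 held 1.05, 1.85 and 0.775 CPM. The 3 genotypes occupied 3 separate ranges in the order of the number of mutated alleles, though the WT values rest on 4, 20 and 7 reads. Between the mutant genotypes the log2 fold change was 1.29 (SE 0.163, 95% interval 0.93 to 1.65, edgeR adjusted p 0.000841), or 2.44-fold higher in *Zeb1 200M*. In the breeding trial cohort miR-202-5p could not be tested. There it was at 9.09, 0 and 0 CPM in *Zeb1 200H*, 11.4, 0 and 0 CPM in *Zeb1 200M* and 0 CPM in every WT library. The hairpin Mir202 (chr7:139957689-139957760, minus strand, GRCm38) lies in an exon of the lincRNA Gm2044. Its sequence is shown because its level was graded upward over the 3 genotypes.
miR-202-5p: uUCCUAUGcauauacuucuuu

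miR-34a-5p, a transcriptional target of p53, was called lower in the homozygote. It was at 526, 481, 482 and 491 CPM in *Zeb1 200H* (495 ± 20.9) and at 362, 395, 389 and 417 CPM in *Zeb1 200M* (391 ± 22.4), beside 254, 487 and 458 CPM in WT replicates 1, 2 and 4. Heterozygous libraries and WT replicates 2 and 4 were thus close together, above all homozygous libraries, while WT replicate 1 was below them all. The log2 fold change between the mutant genotypes was −0.40 (SE 0.0696, 95% interval −0.55 to −0.24, edgeR adjusted p 0.00809). The other 6 members of the family of miR-34 and miR-449, which respond to p53 or mark ciliated cells, had values above 0. Examples are miR-34c-5p at 0.30, miR-34b-5p at 0.26 and miR-449a-5p at 0.89 (95% interval 0.24 to 1.54, edgeR adjusted p 0.272), against a family median of 0.27. None of these 6 was called by edgeR's quasi-likelihood test with the filter on low counts, where 2.22% of all miRNAs tested were called. At that share 6 miRNAs would hold fewer than 1 call. Without the filter miR-449a-5p was called. Led by miR-34a-5p, the family sum was 1406, 1163, 1122 and 1408 CPM in *Zeb1 200H* and 1433, 1397, 1402 and 1276 CPM in *Zeb1 200M*, overlapping. Mir34a (chr4:150068454-150068555, plus strand) lies in an exon of the annotated gene Gm37795.

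Both strands of miR-770, whose hairpin is embedded in the maternally expressed lincRNA Meg3, were called higher. miR-770-5p was at 219.6, 242, 212.4 and 236 CPM in *Zeb1 200H* (227 ± 13.6) and at 319.5, 298, 293 and 301 CPM in *Zeb1 200M* (303 ± 11.5). miR-770-3p was at 60.0, 61.5, 60.4 and 61.4 CPM (60.8 ± 0.723) and at 81.1, 87.6, 80.1 and 78.1 CPM (81.7 ± 4.12). The genotypes were well separated for each strand, and the strands moved by the same 1.29-fold, with log2 fold changes of 0.36 (SE 0.0652, edgeR adjusted p 0.00864) and 0.37 (SE 0.0695, edgeR adjusted p 0.0108). In the fit that also held the 3 WT libraries neither strand was called (edgeR adjusted p 0.996 for each), and with WT replicate 1 left out of it both were (edgeR adjusted p 0.00388 for miR-770-5p and 0.00615 for miR-770-3p). WT replicates 2 and 4 held 132 and 139 CPM of miR-770-5p, lower than all mutant libraries, but WT replicate 1 held 254 CPM. The hairpin sits at chr12:109563692-109563785 (plus strand, GRCm38) in an exon of Meg3. The sequences of both strands are shown because both strands of 1 hairpin were called.
miR-770-5p: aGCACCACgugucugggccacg
miR-770-3p: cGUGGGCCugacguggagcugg

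The imprinted Dlk1-Dio3 region, which contains Meg3, encodes many further miRNAs. Of 91 entries, 84 were tested and the 2 miR-770 strands were the called ones, a share close to the 2.22% over all miRNAs tested. The other 82 lay between −0.29 (miR-376a-3p) and 0.72 (miR-668-5p) on the log2 scale, 37 of the 84 were below 0 and 47 above, and the median was 0.02. Summed, the region held 91244, 97903, 88433 and 93565 CPM in *Zeb1 200H* and 92222, 96909, 96158 and 88779 CPM in *Zeb1 200M*, overlapping, with miR-127-3p as the most abundant member.

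Of the neuronal miRNAs, only the main strand of miR-124 was called. miR-124-3p.1, the more abundant 5′-end variant, was at 3089, 3073, 3333 and 3487 CPM in *Zeb1 200H* and at 5653, 4622, 5717 and 3777 CPM in *Zeb1 200M*. miR-124-3p.2 was at 777, 779.9, 863 and 867 CPM and at 1499, 1215, 1462 and 989.6 CPM. In both variants *Zeb1 200M* replicate 4 was the lowest homozygous library and the nearest to the heterozygous range. The log2 fold changes were 0.55 (SE 0.116, 95% interval 0.30 to 0.80, edgeR adjusted p 0.0239) and 0.60 (SE 0.117, 95% interval 0.34 to 0.85, edgeR adjusted p 0.0152). The first was no longer called without *Zeb1 200H* replicate 1 (edgeR adjusted p 0.0736), *Zeb1 200H* replicate 2 (0.0930) or *Zeb1 200M* replicate 1 (0.0645), and miR-124-3p.2 was no longer called without *Zeb1 200H* replicate 1 (0.0516) or replicate 2 (0.0687). With the variants summed, chosen after seeing the data, miR-124-3p was 0.57 higher on the log2 scale (SE 0.113, edgeR adjusted p 0.0176).

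WT libraries 1, 2 and 4 held 383, 1019.8 and 1113 CPM of miR-124-3p.1, below every mutant library. The passenger strand miR-124-5p was at 3.70, 4.02, 2.88 and 2.57 CPM in *Zeb1 200H* and at 6.56, 4.00, 7.29 and 5.07 CPM in *Zeb1 200M*. The ranges overlapped at about 4 CPM, and it was not called (log2 0.74, 95% interval 0.22 to 1.25, edgeR adjusted p 0.254). Across the 12 neuronal miRNAs, all tested, 2 were called higher, both 5′-end variants of the same miRNA, where 0.741% of all miRNAs tested were called higher. Of the 12, 6 were below and 6 above 0, and the median was 0.01. The most abundant, miR-129-1/2-3p, had a log2 fold change of −0.27 (edgeR adjusted p 0.176), opposite in sign to miR-124. The list sum was 19630, 21116, 20543 and 22028 CPM in *Zeb1 200H* and 24793, 22129, 24066 and 19355 CPM in *Zeb1 200M*, overlapping, against 9862, 16983 and 17511 CPM in WT. Whether neural tissue in the dissected gland had a part in the rise of miR-124-3p was not tested.

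Lists for other cell types, muscle and liver among them, had none of 43 tested members called by edgeR's quasi-likelihood test. Over all miRNAs tested 2.22% were called, so that about 1 call would be expected at that share. Endocrine miRNAs, led by miR-7a-5p, were at a median of −0.12 with 6 of 7 below 0, and their sum was 265100, 254169, 278419 and 265184 CPM in *Zeb1 200H* and 232690, 257728, 236466 and 280730 CPM in *Zeb1 200M*. *Zeb1 200M* replicate 4 was its highest library and replicate 1 its lowest. The cluster of miR-132 and miR-212, which gonadotropes induce in response to GnRH, had 4 of 4 members above 0 at a median of 0.04. Led by miR-132-3p, it summed to 7116, 10000.4, 8169 and 7498 CPM and to 8029, 9691, 9945 and 8540 CPM. Glial miRNAs (3 of 4 tested, median 0.03, led by miR-338-3p) summed to 821 ± 25.2 CPM in *Zeb1 200H* and 845 ± 45.2 CPM in *Zeb1 200M*. In each of these lists the sums of the genotypes overlapped.

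Vascular miRNAs, led by miR-126a-3p.1, had 6 of 7 members above 0 at a median of 0.14, and summed to 10152 ± 933 CPM in *Zeb1 200H* and 10983 ± 1294 CPM in *Zeb1 200M*. Mesenchymal miRNAs, led by miR-199a/b-3p, had 4 of 5 above 0 at a median of 0.11, with sums of 726 ± 80.5 and 812 ± 73.7 CPM. These lists overlapped between the genotypes as well. Immune cell miRNAs (7 tested, 5 below 0, median −0.05, led by miR-142a-3p.2) summed to 2042 ± 285 and 2071 ± 177 CPM. Red blood cell miRNAs (5 tested, 4 below 0, median −0.24) were led by miR-451a, and *Zeb1 200H* replicate 2 stood out at a sum of 18869.9 CPM, against 8629, 10989 and 10075 CPM in replicates 1, 3 and 4 and 10052, 9594, 9563 and 11319 CPM in *Zeb1 200M*, an overlapping range. Muscle miRNAs (4 tested, all above 0, median 0.68), led by miR-1a-3p, were scarce and variable, at 33.6, 59.3, 18.2 and 27.7 CPM against 44.7, 63.1, 17.2 and 96.0 CPM. The liver miRNA miR-122-5p was at 7.60, 7.01, 7.93 and 7.83 CPM against 5.23, 7.26, 6.47 and 6.33 CPM (log2 −0.32). The part of these cell types in the called differences was not tested.

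None of the 10 most abundant miRNAs in *Zeb1 200H* was called, where 2.22% of all miRNAs tested and 6 of 108 above 1000 CPM were, shares at which 10 miRNAs would hold fewer than 1 call. miR-7a-5p, an abundant miRNA of hormone-secreting cells, was at 122358 ± 5306 CPM in *Zeb1 200H* and 114468 ± 11692 CPM in *Zeb1 200M* (log2 −0.15, 95% interval −0.30 to −0.00, edgeR adjusted p 0.515). miR-375-3p, which restrains insulin secretion in islets, was at −0.13 (95% interval −0.31 to 0.05). The remaining 8 of the 10 most abundant, miR-29b-3p, miR-29a-3p, miR-29c-3p, miR-7b-5p, miR-125b-5p, miR-127-3p, miR-26a-5p and let-7c-5p, lay between −0.09 and 0.04. In all, 464 of 675 tested miRNAs (68.7%) had a 95% interval that stayed within 1.5-fold in either direction. That share was 20.3% below 10 CPM, 87.9% from 10 to 100 CPM, 97.7% from 100 to 1000 CPM and 91.7% above, so for most miRNAs below 10 CPM a 1.5-fold difference lay within the interval at this depth.

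To place the step from heterozygote to homozygote beside the step from WT to heterozygote, the 11 virgin libraries were fitted together and the contrast of the 2 steps was tested. Steps taken in the same fit share the *Zeb1 200H* libraries, so their values are given side by side. In the first step 67 of 704 miRNAs (9.52%) were called, and 136 of 729 (18.7%) without WT replicate 1. The steps of the chromosome 4 guides were −2.39 and −0.50 for miR-200b-3p, −2.69 and −0.46 for miR-200a-3p, and −2.68 and −0.81 for miR-429-3p. Without WT replicate 1 they were −2.42 and −0.49, −2.46 and −0.46, and −2.74 and −0.81, so with or without that library most of the loss on the log2 scale was already present with 1 mutated allele. For miR-205-5p the steps were −2.88 and −0.18, or −3.07 and −0.18 without WT replicate 1. The chromosome 6 guides stepped by −2.86 and −1.24 (miR-200c-3p) and by −2.51 and −1.21 (miR-141-3p), and without WT replicate 1 by −2.09 and −1.23 and by −2.09 and −1.21.

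The difference of the steps passed the test for 10 of 704 miRNAs (1.42%), in each case with a smaller second step. They were miR-200b-3p (1.89, edgeR adjusted p 0.000274), miR-205-5p (2.70, 0.000274), miR-200a-3p (2.23, 0.000611), miR-429-3p (1.86), miR-200b-5p (2.38), miR-200a-5p (2.62), miR-183-5p (1.22), miR-96-5p (1.46), miR-182-5p (1.12) and miR-31-5p (1.40). The number was 6 without *Zeb1 200H* replicate 3, which lost miR-182-5p, miR-183-5p, miR-31-5p and miR-96-5p, and also 6 without *Zeb1 200H* replicate 4, which lost these 4 and miR-200a-5p and added miR-205-3p, named after its values were seen. miR-31-5p was lost as well without *Zeb1 200H* replicates 1 or 2 or *Zeb1 200M* replicates 1, 2 or 4, miR-182-5p without *Zeb1 200H* replicate 2 or *Zeb1 200M* replicate 1, and miR-200a-5p without *Zeb1 200H* replicate 2. Without WT replicate 1 the number rose to 40 of 729 (5.49%), 24 positive and 16 negative, and all 10 were still called. In that fit the chromosome 6 guides joined them, at 0.86 for miR-200c-3p and 0.88 for miR-141-3p (edgeR adjusted p 0.00135 for each), against 1.62 (0.268) and 1.30 (0.151) with all 11 libraries. With all 11 libraries miR-141-3p was called by DESeq2 (1.33, adjusted p 0.0283) and by limma voom (0.91, 0.000793). miR-200c-3p was called by limma voom (0.90, 0.00342) but not by DESeq2 (1.66, 0.082). The scarce passenger strand miR-429-5p stepped by −4.27 and 0.13 with all 11 libraries. It had 36, 40 and 39 reads in WT, against 3, 2, 5 and 4 in *Zeb1 200H* and 4, 6, 1 and 5 in *Zeb1 200M*. It passed the filter on low counts only through WT, and its second step lay at the floor. Its difference of steps, 4.39, or 3.67 without WT replicate 1, therefore cannot be read as a result, and no call is given for it. Relative to the mean of WT replicates 2 and 4, miR-200c-3p was at 25.6% in *Zeb1 200H* and 11.2% in *Zeb1 200M*, miR-141-3p at 25.5% and 11.4%, miR-200b-3p at 20.4% and 14.9%, miR-200a-3p at 19.7% and 14.8%, miR-429-3p at 16.3% and 9.60%, and miR-205-5p at 12.9% and 11.8%. Against the mean of all 3 WT libraries these shares were 19.3% and 8.49%, 23.4% and 10.4%, 23.7% and 17.3%, 20.03% and 15.0%, 19.2% and 11.3%, and 16.2% and 14.8%, in the same order of miRNAs.

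Steps were also taken for the miRNAs called higher in *Zeb1 200M* and for miR-34a-5p. miR-202-5p stepped by 1.54 and then 1.30, or 1.60 and 1.30 without WT replicate 1, and the difference did not pass the test, at −0.25 with all libraries (edgeR adjusted p 0.860) and −0.30 without WT replicate 1 (0.799). That difference was imprecise, since it went from −0.73 without WT replicate 2 to 0.13, with the sign turned, without WT replicate 4, and was −0.00 without *Zeb1 200H* replicate 1 and −0.46 without replicate 2, called in none of them. miR-124-3p.1 stepped by 1.70 and 0.56, a difference of −1.14 (edgeR adjusted p 0.156) that was −0.92 and called without WT replicate 1 (0.0148). With all 11 libraries it was called by DESeq2 (−1.12, adjusted p 0.0445) and by limma voom (−0.90, 0.00848). miR-124-3p.2 stepped by 1.38 and 0.61, or 1.35 and 0.61 without WT replicate 1, and the difference of −0.77 (edgeR adjusted p 0.187) was not called without that library (−0.74, 0.0518) or by DESeq2 (−0.75, 0.0868) but was by limma voom (−0.71, 0.0308). miR-770-3p stepped by 0.32 and 0.38, or 0.59 and 0.38. miR-34a-5p, lower in the homozygote, stepped by 0.01 and −0.39, or −0.06 and −0.38, and miR-770-5p by −0.10 and 0.37, or 0.62 and 0.37 without WT replicate 1. Neither miR-34a-5p nor miR-770-5p was called in the first step with all libraries (edgeR adjusted p 0.972 and 0.880). Without WT replicate 1 the first step of miR-34a-5p was still not called (edgeR adjusted p 0.741), while that of miR-770-5p turned in sign and was called (8.04e-05). Their differences of steps were not called with all libraries (0.501 and 0.773) or without WT replicate 1 (0.216 and 0.327), or in any other alternative run.

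**Figure D3:**
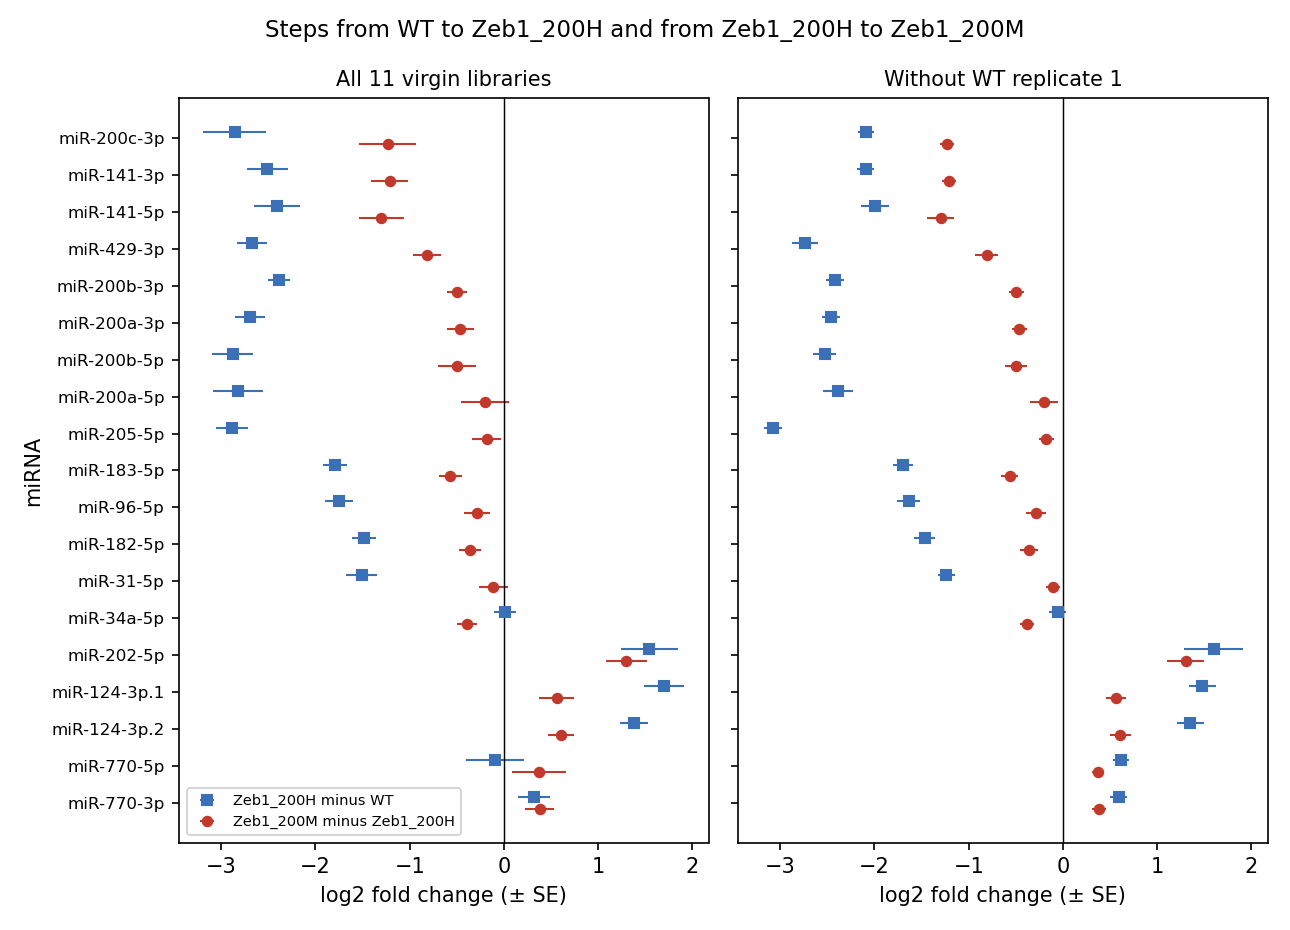
log2 fold change with SE from WT to *Zeb1 200H* (blue squares) and from *Zeb1 200H* to *Zeb1 200M* (red circles) for 19 miRNAs, with all 11 virgin libraries (left) and without WT replicate 1 (right). The second step of the chromosome 4 miR-200 strands, miR-205-5p and the miR-183 cluster lies much nearer 0 than the first, while the steps of miR-202-5p, at 1.54 and 1.30, lie close together.

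The same contrast in the breeding trial cohort rested on far fewer reads. Its *Zeb1 200H* libraries held 110003, 60037 and 131324 reads and its *Zeb1 200M* libraries 87665, 124190 and 122810, and 274 miRNAs could be tested, of which 3 (1.09%) were called. miR-200c-3p was at 4382, 4780.4 and 4188 CPM in *Zeb1 200H* and at 1848, 1989 and 1783 CPM in *Zeb1 200M* (log2 −1.28, SE 0.148, edgeR adjusted p 1.37e-12). miR-141-3p was at 4136, 3131 and 4592 CPM against 1916, 2198 and 1938 CPM (log2 −1.02, SE 0.149, edgeR adjusted p 2.28e-08). Both were lower in every homozygous library, and WT libraries held 18617 to 21536 CPM of miR-200c-3p. miR-124-3p, which has 1 entry in this cohort's dictionary, was at 4618, 3564 and 4653 CPM against 8042, 7738 and 8232 CPM (log2 0.85, SE 0.131, edgeR adjusted p 1.15e-07), and WT libraries held 825 to 1477 CPM. Without *Zeb1 200M* replicate 2 the number called was 5, with miR-142-3p and miR-184-3p added, which are named after their values were seen.

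Guides of the chromosome 4 cluster were not called in the breeding trial cohort. Their log2 fold changes were −0.35 for miR-200b-3p (95% interval −0.66 to −0.04), −0.34 for miR-429-3p (−0.73 to 0.06) and −0.13 for miR-200a-3p (−0.45 to 0.19). The corresponding values were −0.24 for miR-34a-5p (95% interval −0.68 to 0.21), 0.10 for miR-770-5p (−0.37 to 0.56) and 0.25 for miR-205-5p (−0.20 to 0.71). miR-183-5p, called lower in the virgin cohort, had too few reads to be tested in this contrast. It was at 81.8, 50.0 and 68.5 CPM in *Zeb1 200H* and at 91.3, 136.9 and 48.9 CPM in *Zeb1 200M*, overlapping and without a decrease. The difference between cohorts was tested directly over the 618 miRNAs that could be matched and tested, and 0 (0%) were called by edgeR's quasi-likelihood test, with 44 at an unadjusted p below 0.05 and 0 called by DESeq2 (36 at an unadjusted p below 0.05). The interaction, virgin minus breeding trial, was 0.09 for miR-200c-3p (95% interval −0.19 to 0.37), −0.15 for miR-141-3p (−0.51 to 0.21), −0.11 for miR-200b-3p (−0.42 to 0.20), −0.29 for miR-200a-3p (−0.65 to 0.07) and −0.43 for miR-429-3p (−0.92 to 0.06). It was −0.89 for miR-183-5p without its 5′-end variant (95% interval −1.74 to −0.04, edgeR adjusted p 0.644), an interval that leaves out 0 though the test was not passed. For miR-124-3p, matched after its variants were summed, it was −0.29 (95% interval −0.64 to 0.07). The joint fit used a spread shared by both cohorts. Its SE for miR-200c-3p, 0.134, lay below the 0.148 of the breeding trial contrast alone, so the intervals of the interaction can be too narrow. The cohorts differed in age, breeding history, library preparation and counting dictionary, which cannot be told apart. According to the paper, most homozygous females in the breeding trial had no litter, and the others had fewer litters than heterozygous females. Litter history can thus differ between the genotypes within the breeding trial contrast itself, and its part there was not tested.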

How the data were processed

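Small-RNA-seq libraries were made from pituitaries of single mice. The authors trimmed reads with cutadapt, matched the first 19 bases (virgin cohort, TargetScanMouse dictionary, without mismatches) or the first 18 bases (breeding trial cohort, miRBase) to mature miRNAs, removed size standards and spike-ins, and deposited raw counts per miRNA. No genome was used for counting. The submitters' processing notes name DESeq2 1.38.3. The deposited tables also hold the authors' comparisons (log2 fold changes, Wald statistics, p values) and scaled values, none of which were used, and 59 per-sample columns, which were scaled values or repeats of the same libraries, were not used.

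Counts were tested with edgeR 4.0.16 (R 4.3.3) by quasi-likelihood F tests after TMM scaling, with low counts filtered by filterByExpr (count of at least 10, total of at least 15), and Benjamini-Hochberg adjustment over all miRNAs tested. A miRNA was called at an adjusted p below 0.05. Each pair of genotypes was fitted on its own. A fit of the 11 virgin libraries gave the allele steps and their difference, and a fit of 14 libraries with cohort as a term gave the interaction. CPM values use the total count of a library. Intervals are 95% intervals from the fitted SE. DESeq2 1.42.0 and limma 3.58.1 (voom with sample quality weights) served as alternatives, beside other scaling, filters, thresholds, a replicate block and leaving out each library. The code was tested on simulated counts.

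miRNAs named were all called ones, every miR-200 superfamily strand, miR-205-5p, the miR-183 cluster, miR-124 strands, the 10 most abundant in *Zeb1 200H*, the called and most abundant members of each list, and up to 10 called in each further test. Other list members, such as miR-34c-5p and miR-376a-3p, were chosen after their values were seen. The members and lists were chosen with earlier results of these data known, so lists carry counts and medians and no test. Intervals and p values rest on the spread between these mice, moderated by the spread over all miRNAs tested in the same fit. The small adjusted p values of the breeding trial cohort thus do not measure the spread between its mice alone.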

Additional observations from a re-analysis of the deposited data

Results flagged for a closer look

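Among 122 sets of 4 libraries, each holding the values of 1 genotype for a named miRNA, a summed list, the cluster ratio or a library property in the virgin cohort, 4 had 1 library far from the other 3, where chance gives about 1 in 20. miR-429-3p was at 824 CPM in *Zeb1 200H* replicate 3 and at 551–587 CPM in the other heterozygous libraries. let-7c-5p was at 23509 CPM in *Zeb1 200H* replicate 3 against 26240.4–26663 CPM in the others. miR-126a-3p.1 was at 3748.5 CPM in *Zeb1 200M* replicate 3 against 4066–4131 CPM in the others. miR-199a/b-3p was at 485 CPM in *Zeb1 200M* replicate 4 against 365–374 CPM in the others. Of these 4, miR-429-3p was the called one, and it was called with each library left out in turn.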

How the results depend on the processing

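In the virgin cohort the number called between the mutant genotypes was 15 under other scaling, a CPM filter, a robust fit and limma voom, 20 by DESeq2 and without a filter, 11 at an adjusted p below 0.01, 13 with name variants summed (chosen after seeing the data), and 12 to 16 with 1 library left out. In a common fit of 3 genotypes it was 5. With the replicate number as a block it was 14, with miR-200c-5p and miR-770-3p (edgeR adjusted p 0.0536) lost. The cause was not tested. Not all same-numbered libraries deviated together (correlations across miRNAs of 0.256, 0.1496, 0.321 and −0.0338, and −0.119 and −0.245 in the breeding trial cohort), and of the *Zeb1 200M* libraries of the virgin cohort replicates 1 and 3 correlated best with their own number and replicates 2 and 4 did not. The labels give no pairing, so the numbers were not used to pair the mice. In the breeding trial cohort the block left 4 libraries and 0 called by edgeR (29 at an unadjusted p below 0.05), against 3, and leaving out 1 library gave 3 to 5. The interaction gave 0 under every alternative run, with 44 at an unadjusted p below 0.05 by edgeR and 36 by DESeq2. The difference of allele steps gave 10 called, 25 by DESeq2, 47 by limma voom, 7 with the replicate block, which lost miR-182-5p, miR-183-5p and miR-31-5p, and 6 to 40 with 1 library left out.

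Of 738 values for 41 named miRNAs, 682 kept their direction and side of the threshold, 28 lost and 3 gained a call, and 25 changed sign. The latter belong to 7 uncalled miRNAs near 0, the largest being 0.0417. miR-29a-3p was at 0.00300 by DESeq2 and with RLE size factors, 0.000969 with TMM taken without the miR-200 superfamily, 0.00954 without a filter, 0.0124 by limma voom and 0.00367 in the common fit. miR-29c-3p was at 0.00027 by limma voom. With 1 library left out the log2 fold change ran from −0.0849 to 0.0256 for miR-29b-3p, −0.0378 to 0.0417 for miR-29a-3p, −0.000864 to 0.0817 for miR-125b-5p, −0.0674 to 0.0346 for miR-29c-3p, −0.0657 to 0.0179 for let-7c-5p, −0.00168 to 0.0644 for miR-338-3p and −0.17 to 0.0294 for miR-142a-3p.2. Below 10 CPM, 20.3% of the miRNAs tested had a 95% interval within 1.5-fold, and the part of depth in this was not tested.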

Other observations

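miR-184-3p, a miRNA best known from the lens and cornea, was chosen after its values were seen. It was at 59.3, 65.9, 29.2 and 49.0 CPM in *Zeb1 200H* and at 34.2, 33.7, 23.8 and 26.5 CPM in *Zeb1 200M* of the virgin cohort. The ranges overlapped only through *Zeb1 200H* replicate 3, the log2 fold change was −0.83 (95% interval −1.29 to −0.37), and it was not called by edgeR's quasi-likelihood test (adjusted p 0.0815), though it was by DESeq2 and, by edgeR, without a filter on low counts, with the replicate block and without *Zeb1 200H* replicate 3. In the breeding trial cohort it was at 145, 99.9 and 168 CPM in *Zeb1 200H* and at 45.6, 121 and 0 CPM in *Zeb1 200M* (log2 −1.38, edgeR adjusted p 0.0741), where the libraries held few reads. The difference between cohorts was 0.62 (edgeR adjusted p 0.844).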
